A study of Mus musculus with 6 samples.

Results

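Rab genes were followed through 6 RNA-seq libraries of mouse embryonic stem cells. They were taken as the rows of the deposited table whose symbol is Rab, a number and optional small letters, which gave 44 of 12331 gene rows. Of these 44, 43 encode Rab GTPases and 1, Rab3ip, encodes Rabin8, an exchange factor that the naming pattern also matches. The values were RPKM, reads scaled by the length of the gene model and by the alignments of the library. This scaling does not correct for GC content or amplification, so comparisons of levels between genes are approximate.

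The cells were E14tg2a, an established line of mouse embryonic stem cells, grown in medium with serum and LIF, the cytokine that keeps such cells undifferentiated. Per the labels' protocols, 10 pg of purified total RNA, close to the content of 1 cell, was primed with oligo(dT) and amplified by 20 PCR cycles. Another label calls the input a lysate of a single cell. For 3 libraries (sonication) the cDNA was sheared by ultrasound and ligated to adaptors, and for 3 libraries (tagmentation) it was cut and tagged by hyperactive Tn5 transposase. The series compared these 2 ways of making a library. Tagmentation took 100 ng of cDNA at 55 °C for 5 min, with 13 library PCR cycles. No such cycle number was found for the sonication libraries, so the way of cutting and the library amplification cannot be told apart. Both groups carry the replicate numbers 1 to 3, which the labels call technical, so every p-value reflects the spread between these libraries alone. Values below are given in the order of numbers 1, 2 and 3. In such RNA, fewer cells of a type and less RNA per cell cannot be told apart.

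The libraries had 18852822 to 34681566 alignments. Of 6 stem cell markers, 5 stood at 1 RPKM or more in all 6 libraries, and Nanog had no reads listed in number 3 with either method. The 4 fibroblast markers measured summed to 0.402 to 12.1 RPKM after sonication and 0.126 to 9.55 RPKM after tagmentation, led by Thy1 in numbers 1 and 2, with Col1a2 listed at 0 in 5 libraries. The 3 neuroectoderm markers measured summed to 32.5 to 47.8 and 14.3 to 51.1 RPKM, nearly all of it Tubb3, while Pax6 was listed at 0 in 5 libraries. The 3 trophoblast markers measured summed to 0.590 to 20.7 and 0.336 to 20.7 RPKM, and Gata3 reached 20.6 RPKM, in number 1. Markers of extraembryonic endoderm were not analysed here. The part of these genes in the Rab levels was not tested.

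Rab proteins are small GTPases that mark the membranes of a cell. Each binds a set of compartments in its GTP form, recruits effectors such as tethers and motors there, and leaves the membrane with a GDP dissociation inhibitor after GTP hydrolysis. Membrane binding needs lipid groups that Rab geranylgeranyl transferase adds to cysteines at the C-terminal end. In proliferating cells the Rab proteins of the endoplasmic reticulum, Golgi and endosomes are housekeeping factors, while others serve secretory vesicles of specialised cells.

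The coding ends of the members the results turn on are shown because this stretch carries those cysteines and is known as the variable end of the family. Each line is the last 48 bases of the coding sequence, stop codon included, 5′ to 3′ on the coding strand. They come from the longest coding transcript of GENCODE M21 on build GRCm38, all within 1 coding exon. Capitals mark cysteine codons (TGT or TGC, in frame) among the last 5 codons before the stop codon.
Rab1 (chr11:20224798-20224845, plus strand): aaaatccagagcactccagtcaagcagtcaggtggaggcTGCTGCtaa
Rab1b (chr19:5100378-5100425, minus strand): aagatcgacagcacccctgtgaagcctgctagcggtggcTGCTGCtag
Rab4a (chr8:123834083-123834130, plus strand): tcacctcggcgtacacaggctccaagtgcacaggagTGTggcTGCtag
Rab4b (chr7:27172652-27172699, minus strand): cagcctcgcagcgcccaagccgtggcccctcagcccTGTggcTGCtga
Rab11a (chr9:64716849-64716896, minus strand): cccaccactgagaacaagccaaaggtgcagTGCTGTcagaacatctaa
Rab11b (chr17:33747668-33747715, minus strand): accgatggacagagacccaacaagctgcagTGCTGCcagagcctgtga
Rab5a (chr17:53506382-53506429, plus strand): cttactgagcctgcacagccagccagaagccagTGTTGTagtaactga
Rab5b (chr10:128679530-128679577, minus strand): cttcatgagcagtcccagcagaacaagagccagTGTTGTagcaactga
Rab5c (chr11:100716047-100716094, minus strand): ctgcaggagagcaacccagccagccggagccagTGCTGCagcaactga
Rab3a (chr8:70758041-70758088, plus strand): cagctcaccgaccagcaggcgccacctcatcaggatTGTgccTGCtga
Rab3b (chr4:108940766-108940813, plus strand): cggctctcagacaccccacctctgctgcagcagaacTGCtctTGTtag
Rab6 (chr7:100639272-100639319, plus strand): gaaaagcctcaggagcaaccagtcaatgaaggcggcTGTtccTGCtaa
Rab9 (chrX:166457708-166457755, minus strand): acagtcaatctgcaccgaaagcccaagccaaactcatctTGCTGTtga
Rab21 (chr10:115290772-115290819, minus strand): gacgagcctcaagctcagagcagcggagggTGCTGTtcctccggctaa
Rab8a (chr8:72180090-72180137, plus strand): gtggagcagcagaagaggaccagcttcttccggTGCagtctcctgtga
Rab3ip (chr10:116907036-116907083, minus strand): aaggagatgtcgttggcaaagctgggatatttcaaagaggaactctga
Of the 42 GTPase genes examined this way, 37 had 2 such codons and 5 had 1, among them Rab8a, whose single cysteine is followed by 3 other codons. Rab3ip had none. In pairs of paralogs the coding sequences were 68.1% (Rab5a and Rab5c) to 78.5% (Rab6 and Rab6b) identical. The longest stretch shared without a mismatch was 38 bases, between Rab1 and Rab1b, then 35 bases between Rab5a and Rab5b, and 14 to 26 bases in the other pairs. How reads that match several genes were counted is not stated in the labels, so some reads of Rab1 and Rab1b could be counted for the other, and processed copies elsewhere in the genome were not examined.

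In the plot of all Rab levels, 16 of the 44 rows reached 1 RPKM in every library. The share of all genes that did so was not computed. These 16 were Rab1, Rab1b, Rab2a, Rab4b, Rab5b, Rab5c, Rab7, Rab8a, Rab9, Rab10, Rab11a, Rab11b, Rab21, Rab24, Rab35 and Rab40c. They span the endoplasmic reticulum, Golgi, endosomes and plasma membrane. Other Rab genes of these sites, such as Rab5a, Rab6, Rab14, Rab18 and Rab22a, did not reach 1 RPKM in every library. At the other end, 7 rows stayed below 1 RPKM in all libraries: Rab3d, Rab8b, Rab26, Rab27a, Rab32, Rab39 and Rab6b. Rab27a, Rab26 and Rab3d act in regulated secretion, and Rab32 in melanosomes and other lysosome-related organelles. Rab6b, the paralog of Rab6 best known from brain, was listed at 0 in 5 libraries and at 0.00609 RPKM in tagmentation library 3. Rab8b did not exceed 0.502 RPKM, or 45 reads, where its paralog Rab8a had at least 24.6 RPKM.

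**Figure D1:**
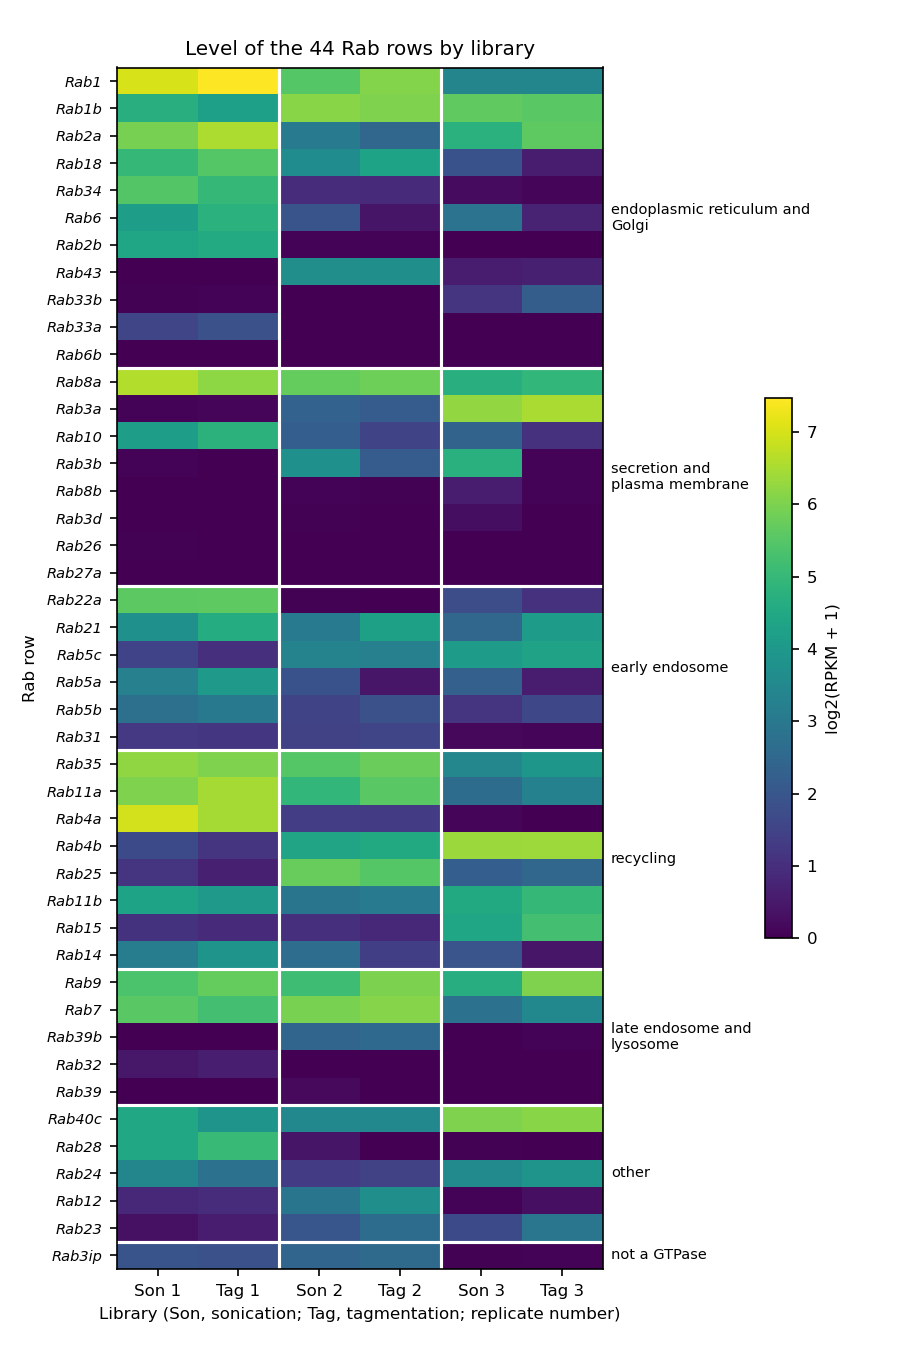
Level of the 44 Rab rows as log2(RPKM + 1), with libraries in columns, paired by replicate number, and rows grouped by site of action. Columns of the same number look alike whatever the method, and Rab8a, Rab35 and Rab9 are visible in every library.

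The summed level of the 43 GTPase genes was 949, 525 and 508 RPKM after sonication and 1019, 607 and 612 RPKM after tagmentation. Number 1 was the highest with either method, and each tagmentation library stood above the sonication library of its number. As a share of all RPKM of the library, Rab genes held 0.267%, 0.145% and 0.176% after sonication and 0.335%, 0.158% and 0.170% after tagmentation, so in number 3 the order of the methods turned on this scale. The 5 most abundant Rab genes made up 50.4% to 58.3% of the sum in each library, but they were not the same genes. Rab1 led number 1 with both methods (128 and 176 RPKM). Rab1b led sonication library 2 with 70.0 RPKM and Rab7 led tagmentation library 2 with 68.1 RPKM. Rab4b led sonication library 3 with 80.6 RPKM and Rab3a led tagmentation library 3 with 91.5 RPKM. Of the 43 genes, 27 to 30 reached 1 RPKM in the sonication libraries and 27, 27 and 22 in tagmentation libraries 1 to 3.

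**Figure D2:**
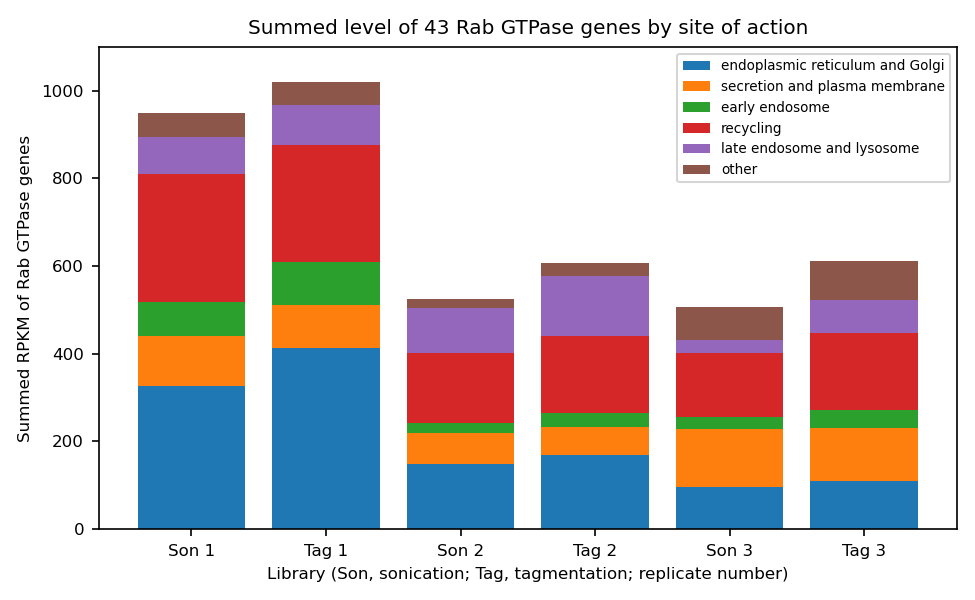
Summed RPKM of the 43 Rab GTPase genes in each library, stacked by site of action. Genes of the endoplasmic reticulum and Golgi held 327 and 412 RPKM in the libraries of number 1 and 96.3 and 109 RPKM in those of number 3.

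Among the Rab genes of the endoplasmic reticulum and Golgi, Rab1 and Rab1b, which drive transport between these compartments, traded places between numbers. Rab1 had 128, 43.9 and 9.64 RPKM after sonication and 176, 67.1 and 9.73 RPKM after tagmentation. Rab1b had 24.6, 70.0 and 49.4 RPKM after sonication and 17.6, 64.3 and 46.0 RPKM after tagmentation. Rab1 was thus above Rab1b in number 1 and below it in number 3, with both methods. Rab2a, which acts between the endoplasmic reticulum and the Golgi, had 59.9, 7.20 and 26.5 RPKM after sonication and 92.7, 4.56 and 48.02 RPKM after tagmentation, lowest in number 2. Its paralog Rab2b had 20.5 and 22.5 RPKM in number 1, but 3 and 4 reads in number 2, and was listed at 0 in number 3, below the 0.0577 and 0.0314 RPKM that 3 reads stand for. Rab18, of the endoplasmic reticulum and lipid droplets, had 30.1, 11.5 and 2.68 RPKM after sonication and 44.4, 19.3 and 0.498 RPKM after tagmentation. Rab34, a Golgi and cilium Rab, had 43.5, 0.925 and 0.154 RPKM after sonication and 30.2, 0.84 and 0.105 RPKM after tagmentation, so nearly all of its reads came from number 1. The other 4 rows of this site after Rab6, which is described below, were low: Rab43 reached 12.2 RPKM in number 2 but at most 0.581 RPKM elsewhere, and the highest values of Rab33b, Rab33a and Rab6b were 3.63, 2.59 and 0.00609 RPKM.

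Of the Rab genes of the secretory pathway and plasma membrane, Rab8a, which brings vesicles from the Golgi to the cell surface and the cilium, was abundant everywhere, with 97.1, 51.0 and 24.6 RPKM after sonication and 72.7, 55.6 and 29.7 RPKM after tagmentation. Rab3a, the Rab of synaptic and other regulated vesicles, had 0.0456, 4.09 and 75.5 RPKM after sonication and 0.0986, 3.55 and 91.5 RPKM after tagmentation, so that number 3 stood far above number 1 with either method. Rab10, which acts in delivery to the plasma membrane, lay between 1.08 and 27.0 RPKM and was highest in number 1.

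Among the early endosome genes, Rab22a had 47.4, 0.0238 and 2.42 RPKM after sonication and 47.9, 0.0151 and 1.07 RPKM after tagmentation. This was 2741 and 1920 reads in number 1 against 1 read in each library of number 2. Rab5c had 1.06 to 18.9 RPKM and was highest in number 3, whereas its paralogs Rab5a (0.354 to 15.4 RPKM) and Rab5b (1.24 to 7.18 RPKM) were highest in number 1. All 3 direct the fusion of early endosomes. Rab31 stayed between 0.0912 and 1.94 RPKM.

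Recycling Rab genes, which return receptors to the cell surface, held pairs of paralogs that changed places. Rab4a, of the fast recycling route, had 122, 1.58 and 0.0751 RPKM after sonication and 86.5, 1.53 and 0.0204 RPKM after tagmentation. Rab4b had 2.17, 19.7 and 80.6 RPKM after sonication and 1.22, 22.2 and 82.1 RPKM after tagmentation. In number 1 Rab4a had 5232 and 2566 reads and Rab4b 77 and 30. In number 3 Rab4a had 2 and 1 reads and Rab4b 1778 and 3330. Rab11a and Rab11b, of the slower route through the recycling endosome, crossed in the same way. Rab11a had 63.7, 29.6 and 5.23 RPKM after sonication and 86.4, 46.2 and 8.71 RPKM after tagmentation, and Rab11b had 19.2, 6.44 and 22.3 RPKM after sonication and 15.1, 7.42 and 30.6 RPKM after tagmentation. Rab35, which also steers actin at the plasma membrane, had 73.9, 44.2 and 10.0 RPKM after sonication and 64.4, 52.7 and 14.5 RPKM after tagmentation. Rab25, the epithelial relative of Rab11, had 1.18, 52.1 and 3.65 RPKM after sonication and 0.584, 44.4 and 4.54 RPKM after tagmentation, with number 2 far above the others. Rab15 had 1.13, 1.02 and 20.3 RPKM after sonication and 0.838, 0.813 and 36.4 RPKM after tagmentation, with number 3 far above the others. Rab14, which links early endosomes and the Golgi, had 0.365 to 13.7 RPKM.

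**Figure D3:**
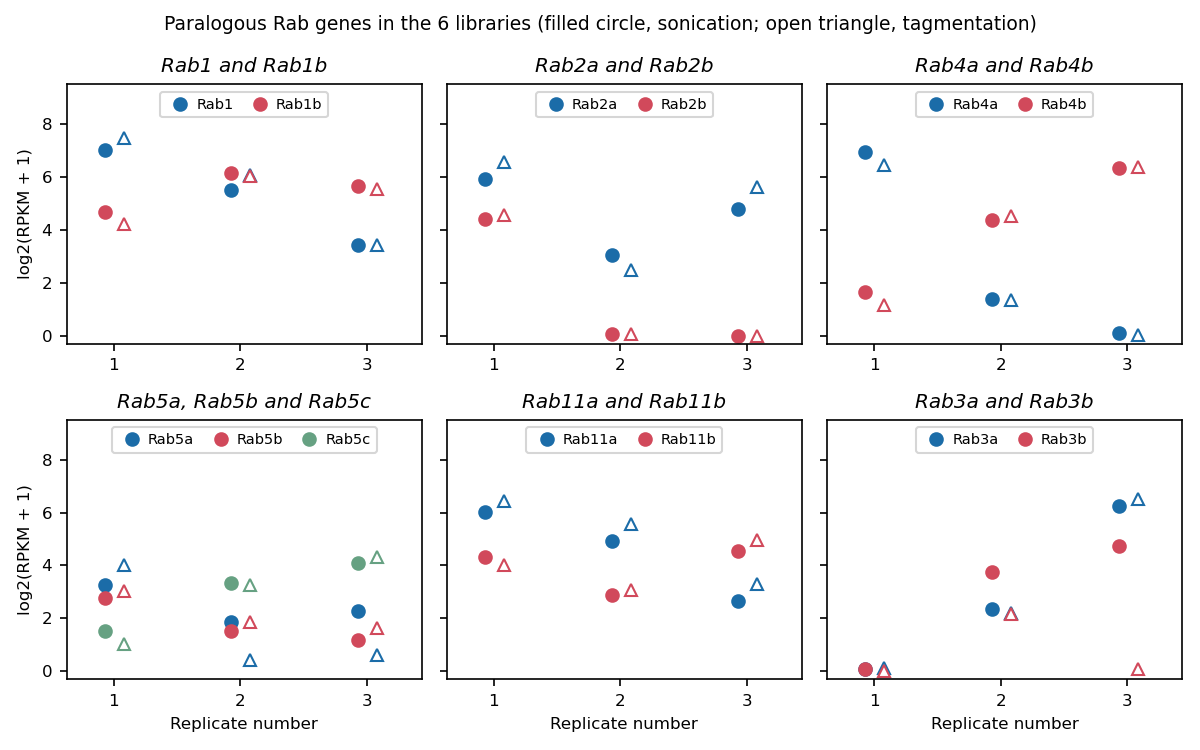
log2(RPKM + 1) of 6 sets of paralogous Rab genes by replicate number, with filled circles for sonication and open triangles for tagmentation. Rab4a is high in number 1 and Rab4b in number 3 with both methods, and Rab3b in number 3 is high after sonication only.

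In the late endocytic pathway, Rab7, which takes late endosomes to lysosomes, had 46.3, 62.1 and 5.87 RPKM after sonication and 37.0, 68.1 and 10.1 RPKM after tagmentation. Rab9, which returns cargo from late endosomes to the Golgi, had 39.8, 34.4 and 24.2 RPKM after sonication and 51.6, 63.2 and 63.6 RPKM after tagmentation. All 6 values lay between 24.2 and 63.6 RPKM, the narrowest span, as a ratio, among the 19 members with a mean of at least 10 RPKM. Rab39b had 4.37 and 4.83 RPKM in number 2 and at most 0.0429 RPKM elsewhere.

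Among the members of other function, Rab40c, which recruits a ubiquitin ligase, had 21.4, 10.1 and 64.2 RPKM after sonication and 13.7, 10.3 and 69.8 RPKM after tagmentation. Rab28 had 21.1 and 31.7 RPKM in number 1, 12 reads and 1 read in sonication libraries 2 and 3, and was listed at 0 in tagmentation libraries 2 and 3, below the 0.0530 and 0.0529 RPKM that 3 reads stand for. Rab24, an autophagy Rab, had 1.51 to 13.7 RPKM. Rab23, an antagonist of Hedgehog signalling, had 0.265 to 6.56 RPKM, and Rab12 had 0.0528 to 12.1 RPKM. Rab3ip had 0.0394 to 5.04 RPKM.

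The replicate number was then tested with the method as a term, by a limma F test on log2(RPKM + 1). Genes entered the test if 3 or more libraries reached 1 RPKM, which 29 of the 44 rows and 6327 genes in all did. The 15 rows left out were Rab12, Rab26, Rab27a, Rab28, Rab2b, Rab32, Rab33a, Rab33b, Rab34, Rab39, Rab39b, Rab3d, Rab43, Rab6b and Rab8b. A row absent from 1 number can pass through the others, so passing and differing between numbers are linked. Of the 29 rows, 27 differed between numbers at a Benjamini-Hochberg adjusted p under 0.05, against a background of 88.1% of all genes tested. The share is near that background. The 2 rows that were not called were Rab21 (adjusted p = 0.0529, limma) and Rab9 (adjusted p = 0.787, limma). Each number has 1 library per method, so this test takes the difference between methods within a number as its error. Its terms are those of the blocked fit below, where 210 of 212 degrees of freedom were prior ones, drawn from other genes. The 27 calls therefore do not follow each row's own spread. Rab3b, with the largest residual SD of the 29 rows (1.66), was called (adjusted p = 3.77e-13, limma). Its number 3 stood at 25.8 RPKM by sonication but at 0.0608 RPKM by tagmentation. The number with the highest level was the same with both methods in 26 of 29 rows (89.7%, against 84.6% of all genes tested). It was number 1 for 14 rows, among them Rab1, Rab8a and Rab35, number 2 for 5, Rab1b, Rab7, Rab25, Rab31 and Rab3ip, and number 3 for 7, among them Rab4b, Rab40c and Rab3a. The exceptions were Rab9, Rab23 and Rab3b. The counts of 14, 5 and 7 are 48.3%, 17.2% and 24.1% of the Rab rows for numbers 1, 2 and 3, beside 33.6%, 33.2% and 17.7% of all genes tested. The number with the highest and that with the lowest mean of both methods differed by 4-fold or more in 23 of 29 rows (79.3%, against 66.3%).

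For the comparison of the methods, no Rab row passed limma's test between all tagmentation and all sonication libraries. The count was 0 of 29, with a background of 0% of 6327 genes. At an unadjusted p under 0.05 it was again 0 of 29, against 0.284%. Fold changes are tagmentation over sonication, as log2 of RPKM + 1, which understates changes of low genes. The median of the 29 rows was -0.011, beside 0.028 over all genes tested. There were 14 values above 0 and 15 below. By site of action the medians ran from -0.24 over the 4 tested rows of secretion and the plasma membrane to 0.52 over Rab7 and Rab9, the 2 late endosome rows. The most extreme values among members with a mean of at least 10 RPKM were 1.22 (SE 0.95) for Rab21, 0.86 (SE 0.56) for Rab9 and 0.57 (SE 1.08) for Rab11a on the higher side. On the lower side they were -0.24 (SE 1.84) for Rab22a, -0.23 (SE 0.71) for Rab1b and -0.20 (SE 2.13) for Rab4a. These SEs hold the differences between numbers, and the signs of the Rab22a, Rab4a, Rab1b and Rab11a values turned when 1 library was left out. This fit cannot show that the methods gave equal Rab levels.

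The values of a number went together across methods, so the replicate number was also taken as a block, and 3 of the 29 rows were then called, 1 higher and 2 lower after tagmentation. The background was 3.29% of all genes, 1.58% higher and 1.71% lower. Rab21, which acts in the uptake of integrins, was the higher one. It had 12.4, 7.67 and 4.54 RPKM after sonication and 23.5, 18.0 and 16.5 RPKM after tagmentation. All 3 tagmentation libraries stood above all 3 sonication libraries, with ratios of 1.89, 2.34 and 3.63 in numbers 1 to 3. The mean was 19.3 ± 3.70 RPKM after tagmentation and 8.22 ± 3.98 RPKM after sonication (SD, n = 3), and the log2 fold change was 1.22 (SE 0.29, limma adjusted p = 0.00545 with the block). Rab9 was the only other row whose groups did not overlap, with 59.4 ± 6.78 RPKM against 32.8 ± 7.92 RPKM, and it was not called (0.86, SE 0.30, limma adjusted p = 0.0824 with the block). Such separation was found in 2 of 29 rows, against 2.4% of all genes tested, 1.88% with tagmentation higher and 0.522% with it lower. The direction was the same in all 3 numbers for 6 rows that were higher after tagmentation (Rab1, Rab5b, Rab9, Rab11a, Rab21 and Rab23), against 19.6% of all genes. It was the same for 3 rows that were lower (Rab1b, Rab3b and Rab4a), against 14.2%. For 2 of these rows, 1 sign rests on few reads. Rab4a had 2 and 1 reads in number 3, by sonication and tagmentation, and Rab3b had 6 and 1 in number 1.

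Rab3b, a Rab of secretory vesicles, was called lower after tagmentation. It had 0.0597, 12.3 and 25.8 RPKM after sonication and 0.0143, 3.53 and 0.0608 RPKM after tagmentation. Number 3 held 1614 reads with sonication but 7 with tagmentation, which is 424 times fewer per length and depth. Number 2 held 902 and 406 reads, and number 1 only 6 and 1. The groups overlapped, and the log2 fold change of -2.09 (SE 0.31, limma adjusted p = 7.49e-08 with the block) came from differences of -0.06, -1.56 and -4.66 in numbers 1 to 3. Rab6, which acts in transport back through the Golgi and to the endoplasmic reticulum, was the other row called lower. It had 17.3, 2.80 and 6.21 RPKM after sonication and 26.4, 0.333 and 0.682 RPKM after tagmentation. It was thus higher after tagmentation in number 1 and 8.42 and 9.10 times higher after sonication in numbers 2 and 3. Its log2 fold change was -1.01 (SE 0.29, limma adjusted p = 0.0303 with the block). The blocked fit weighted the spread of other genes heavily (210 prior against 212 total degrees of freedom), so these SEs do not follow each gene's own spread. The residual SD of the gene itself was 0.29 for Rab21, 1.00 for Rab6 and 1.66 for Rab3b. Without number 3 none of the 29 rows was called, against 0.3% of all genes, and the values were 1.00 for Rab21, -0.81 for Rab3b and -0.47 for Rab6. Without number 2 only Rab3b was called (-2.36), against 0.158% of all genes, with Rab21 at 1.26 and Rab6 at -0.76. That call rests on the differences of -0.06 and -4.66 in numbers 1 and 3. The degrees of freedom were 6327 both without number 3 and without number 2, so the spread came almost wholly from other genes. Without number 1 there were 8 calls, the 3 rows with Rab23 and Rab9 higher, and Rab5a, Rab10 and Rab14 lower, against 16.6% of all genes. All 3 calls ended with a correction for GC content, at 1.14 for Rab21, -2.24 for Rab3b and -1.15 for Rab6, and the degrees of freedom of the test then fell from 212 to 4.53. They also ended with a pseudocount of 0.1, at 1.32, -3.20 and -1.72 in the same order, without the filter, at 1.22, -2.09 and -1.01, and with median-ratio scaling, at 1.17, -2.20 and -1.01. The degrees of freedom were then 9.87, 3.81 and 5.91.

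**Figure D4:**
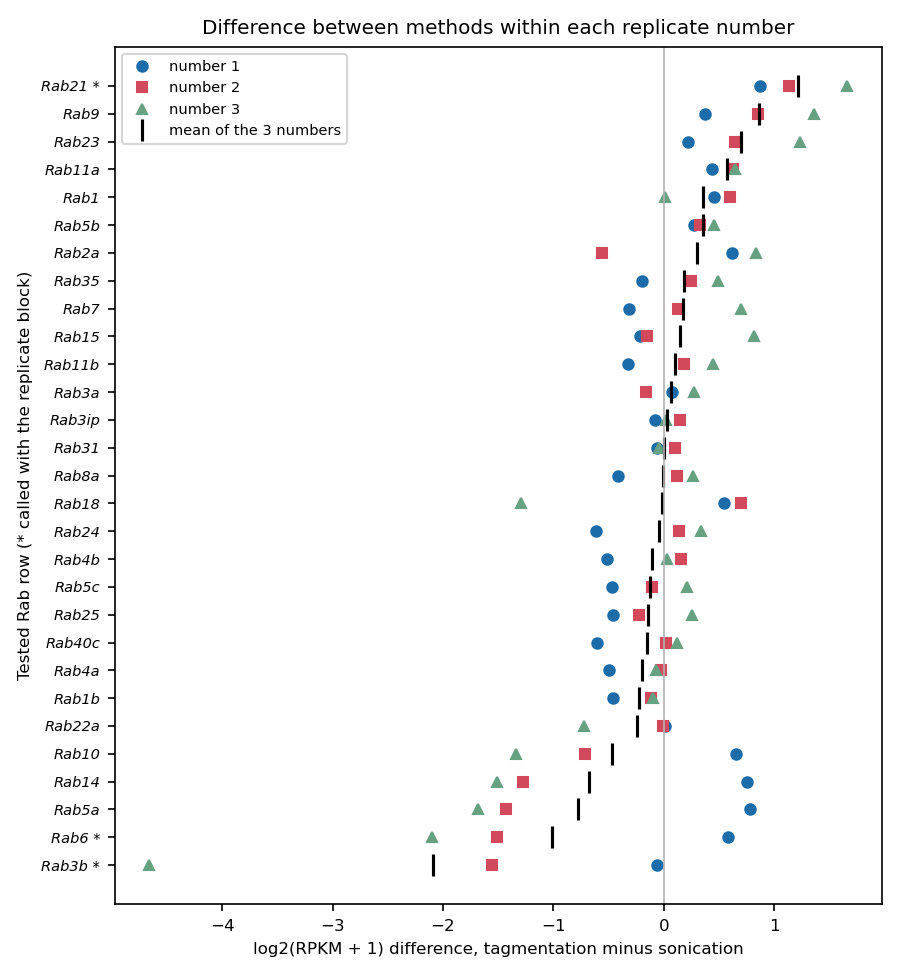
Difference of log2(RPKM + 1), tagmentation minus sonication, for the 29 tested Rab rows within each replicate number, with the mean of the 3 numbers as a bar. Rab21 and Rab9 lie above 0 in all 3 numbers, whereas Rab6, Rab5a, Rab14 and Rab10 lie above 0 in number 1 and below 0 in numbers 2 and 3.

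The change of sign between numbers was shared by other Rab genes, although the set below was put together after its values were seen. Rab5a had 8.54, 2.65 and 3.87 RPKM after sonication and 15.4, 0.354 and 0.512 RPKM after tagmentation. Rab14 had 7.75, 5.31 and 2.89 RPKM after sonication and 13.7, 1.60 and 0.365 RPKM after tagmentation. Rab10 had 16.8, 3.74 and 4.24 RPKM after sonication and 27.0, 1.88 and 1.08 RPKM after tagmentation. Each was higher after tagmentation in number 1, by 1.80, 1.77 and 1.61 times, and lower in numbers 2 and 3. After tagmentation these 3 and Rab6 had 0.333 to 1.88 RPKM in numbers 2 and 3, and after sonication 2.65 to 6.21 RPKM. With Rab22a, 5 of 29 rows had this order of signs, against 9.72% of all genes tested. Rab22a had 1 read with each method in number 2, so its sign there follows the depth of the libraries alone. Its log2 difference in number 1 was 0.014. The reverse order, lower after tagmentation in number 1 and higher in numbers 2 and 3, was found in 8 of 29 rows, against 26.5%.

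In number 1 the difference between methods followed the GC content of the transcripts. Across the 29 rows, the GC content of the longest annotated transcript (GENCODE M21) and the log2 difference had a Pearson correlation of -0.84 (Spearman -0.84) in number 1. It was -0.061 (-0.24) in number 2 and 0.13 (0.014) in number 3. Over 6267 genes the Pearson values were -0.63, -0.032 and 0.034. These describe genes within the same libraries, which share depth and amplification and are not independent replicates. For some rows the longest transcript is much longer than the recovered gene length, as in Rab21 (4602 against 1824 bases) and Rab22a (7155 against 1909 bases). Its GC content need not be that of the sequence counted. All 12 rows below 48% GC, a limit chosen after the values were seen, were higher after tagmentation in number 1, and 2 of the 17 others were. In numbers 2 and 3 it was 6 of 12 in each, and 10 and 13 of 17. Of all genes tested, 38.6%, 58.7% and 65.4% were higher after tagmentation in numbers 1, 2 and 3. Their shares on each side of the GC limit were not computed. Rab21 (42.7% GC) differed by 0.87, 1.13 and 1.66 in numbers 1 to 3, and Rab1b (58.9% GC) by -0.46, -0.12 and -0.10. Some paralog pairs shown above differ in this respect. The longest transcript of Rab1 has 42.0% GC and that of Rab1b 58.9%, and in Rab11a and Rab11b it is 39.5% and 48.1%. In number 1, Rab11a was 1.36 times higher after tagmentation, and Rab11b stood at 0.789 of its sonication level. Rab4a and Rab4b (53.7% and 57.9% GC) did not part in this way, at 0.707 and 0.562 of their sonication levels in number 1.

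**Figure D5:**
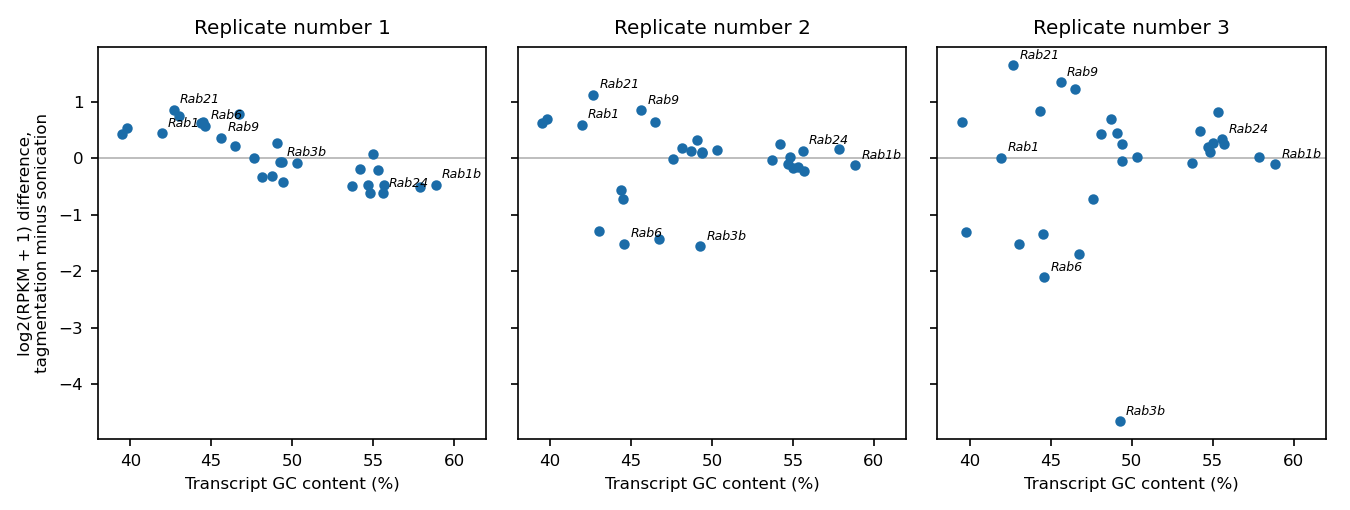
Transcript GC content of the 29 tested Rab rows against the log2(RPKM + 1) difference, tagmentation minus sonication, for replicate numbers 1, 2 and 3. In number 1 the points fall along a descending line (Pearson -0.84), while in numbers 2 and 3 the rows of low GC content are split, with Rab21 above 0 and Rab6 below.

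The genes that act on Rab proteins were read from lists of lipid-attaching enzymes, GDP dissociation inhibitors and recycling factors, exchange factors, GTPase-activating proteins and effectors, 153 genes in all, of which 128 were in the table and 60 were tested. None of the 60 was called between methods by limma, with or without the block, beside 0% and 3.29% of all genes, and 58 differed between numbers, beside 88.1%. Their median log2 fold change was -0.081. Rabggtb, the catalytic subunit of the transferase that lipidates Rab proteins, had 129.6, 37.4 and 9.88 RPKM after sonication and 142, 43.3 and 14.4 RPKM after tagmentation, and its partner Rabggta had 0.0187 to 12.0 RPKM, with its highest values in number 2. Gdi2, which extracts Rab proteins from membranes, had 168, 28.2 and 45.2 RPKM after sonication and 225, 18.9 and 77.1 RPKM after tagmentation, and Rabac1, a Golgi protein that binds Rab proteins, had 11.5, 117 and 161 RPKM after sonication and 5.55, 101 and 138 RPKM after tagmentation. Among exchange factors, Trappc6a and Trappc4, subunits of the TRAPP complexes that activate Rab1, were the most abundant. Trappc6a had 116, 146 and 145 RPKM after sonication and 51.9, 119 and 125 RPKM after tagmentation, and Trappc4 had 80.4, 58.7 and 12.2 RPKM after sonication and 64.8, 72.1 and 19.8 RPKM after tagmentation. In the list of GTPase-activating proteins, the TBC family gene Tbc1d7 had 3.64, 71.3 and 30.5 RPKM after sonication and 2.73, 76.2 and 40.9 RPKM after tagmentation. A place in this list does not show activity on a Rab protein. Tbc1d14 had 2.59, 0.328 and 51.8 RPKM after sonication and 2.43, 0.238 and 90.2 RPKM after tagmentation, so its level rests on number 3. Among effectors, the lipid kinase gene Pik3c3, which acts with Rab5, had 17.4, 43.6 and 15.9 RPKM after sonication and 15.2, 57.1 and 28.0 RPKM after tagmentation. Uso1, the Rab1 tether p115, had 1.91, 13.3 and 20.6 RPKM after sonication and 2.41, 21.4 and 60.5 RPKM after tagmentation. Rab3ip is counted here among the exchange factors as well.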

How the data were processed

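The authors deposited RPKM values, and the file headers give the alignment totals. Build mm9, CASAVA 1.7.0 and Partek are named, without a role, in the submitters' processing notes. The aligner and annotation were not given in the sources used here. The members and gene lists were chosen with earlier results of these data known.

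Values were tested as log2(RPKM + 1), a pseudocount of 1, with limma 3.58.1 (trend) in R 4.3.3, two-sided, Benjamini-Hochberg adjusted over 6327 genes at or above 1 RPKM in at least 3 of 6 libraries, threshold 0.05. The fit was also run on simulated data with normal noise at each gene's residual SD, and no result here rests on that run. Deviations from group means correlated by 0.952, 0.969 and 0.934 between same-numbered libraries (0.911, 0.960 and 0.895 over Rab rows). The numbers were therefore taken as pairs, although the labels do not state this. Between libraries of different numbers the correlations were below 0. The deviations of a gene sum to 0 within a method, which pulls those values below 0, so they are no separate support. No 2 libraries held identical values.

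Reads were recovered with the shortest gene length that made all values whole (within 0.002 reads plus 6e-06 of the reads). This worked for 32 members and for 74.4% of 946 sampled genes, against 0.317% with the totals moved by 1 library. A true length could be a multiple. PCR copies carry no molecular identifiers here and are not independent molecules, so limits from reads cover counting error only.

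Values in every library were given by rule for members with a mean of at least 10 RPKM or a call in either fit, and of other members names, ranges and counts. Per-library values of Rab5a, Rab10, Rab14, Rab2b, Rab28 and Rab39b were chosen after they were seen. Fold changes are given for the called rows and the 3 most extreme each way. All 44 members matched GENCODE M21 (GRCm38), 2 under other symbols (Rab1a and Rab6a). GC content was found for 99.1% of tested genes. Alternatives covered the pseudocount, filter, scaling, block, GC content and left-out libraries.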

Additional observations from a re-analysis of the deposited data

How the results depend on the processing

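Without the block, 0 genes and 0 Rab rows were called under every alternative run: pseudocounts of 0.1 and 5, no filter, a filter at a mean of 10 RPKM, median-ratio scaling, quantile normalization and each left-out library. The median log2 fold change of the Rab rows was -0.39 to 0.26 without each library, beside -0.15 to 0.15 over all genes. The Rab rows called between numbers were 27 of 29 with the main settings, beside 88.1% of all genes tested. They were 17 of 19 with the filter at a mean of 10 RPKM, which tests fewer rows, beside 84.8%. Without a filter they were 33 of 44, beside 67.0%. With median-ratio scaling or quantile normalization they were 25 of 29, beside 90.9% and 91.75%. Without numbers 1, 2 and 3 in turn they were 21, 23 and 20 of 29, beside 72.0%, 60.9% and 69.9%. With the replicate block, 208 genes and 3 Rab rows were called, and the block changed no other call on a Rab row. Without 1 number the blocked counts were 10 to 1051 genes and 0 to 8 Rab rows. The blocked settings below, except the GC correction, were chosen after seeing the data. The counts were 8 of 6327 genes with a pseudocount of 0.1, and 168 of 6327 genes and 2 of 29 Rab rows with 5. With the filter at 10 RPKM they were 168 of 4023 genes and 1 of 19 Rab rows. With quantile normalization they were 476 of 6327 genes and 2 of 29 Rab rows. No Rab row was called with the pseudocount of 0.1, and no gene with the GC correction, no filter or median-ratio scaling; the cause was not tested. Rab21 was called with the pseudocount of 5, the filter at 10 RPKM and quantile normalization, at 0.91, 1.22 and 1.09. The degrees of freedom were 12650, 8046 and 6.175 in the same order. With the pseudocount of 5 and the filter at 10 RPKM, the spread thus came almost wholly from other genes. The log2 fold change without each library was -1.93 to 1.32 for Rab22a, -2.12 to 1.87 for Rab4a, -0.64 to 0.30 for Rab1b and -0.38 to 1.48 for Rab11a. Without number 3, the blocked value of Rab22a was 0.0010. At these depths 1 read was worth at most 0.0850 RPKM among the 32 members with a recovered length. Rab9 was called with quantile normalization and without number 1, at 0.67 and 1.11.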
